A study of Mus musculus with 24 samples.

Results

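The transcripts of the cytosolic ribosomal proteins, the proteins of the ribosome that translates messenger RNA in the cytoplasm, were followed in mouse liver after weight-loss surgery. The genes were taken by name: every gene called Rpl or Rps followed by a digit, with Rplp0, Rplp1, Rplp2 and Rpsa, and without the Rps6k kinases and names that contain "-ps". This gave 84 of the 14995 genes in the count table, of which 49 carry large-subunit names, 34 carry small-subunit names and 1, Rps19bp1, is taken in by its name although it encodes a regulator that binds the ribosomal protein Rps19. Rps23rg1 and Rps27rt among them are retrogene copies. All 84 had enough counts to be tested.

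The series concerns obese mice and holds 24 liver libraries, 8 in each of 3 groups, from tissue taken 20 weeks after surgery. RYGB mice had Roux-en-Y gastric bypass, an operation that leaves a small gastric pouch joined to a lower loop of gut. Sham mice had a sham operation, and WM mice were matched in weight to RYGB mice through calorie restriction. Strain, age, sex, diet and any operation in the WM mice were not stated in the labels, and nothing says whether each library is a different mouse, so that p-values measure the spread between these libraries. Sequencing read 50 bp at the 3′ end of each polyadenylated transcript, and the counts assigned to genes summed to between 13659647 and 22766612 per library. Levels are counts-per-million (CPM) with library sizes scaled by TMM, a fold change is on the log2 scale ± its standard error, and a gene is called higher or lower where its adjusted p is under 0.05 (edgeR quasi-likelihood F-test, Benjamini-Hochberg over 13121 tested genes).

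A cytosolic ribosome has a small subunit, which scans and decodes the messenger RNA, and a large subunit, which forms peptide bonds and carries the P-stalk that receives elongation factors. The proteins are made in matched amounts, and their messenger RNAs in mammals typically begin with a run of pyrimidines called a 5′ TOP motif, through which the mTOR kinase pathway and the protein Larp1 govern their translation and stability. In the liver, ribosome content is known to follow feeding and growth signals.

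Promoter windows show pyrimidine runs near the annotated start in some members and not in others. RefSeq (GRCm38.p6) gave a window for 64 of the 84 genes, of 30 bases before and 30 bases from the annotated start on, written 5′ to 3′ on the strand of the gene. Capitals mark every run of 8 or more C or T, wherever it lies in the window. The run of Rps25 lies wholly before the annotated start and that of Rpl13a just after it, so that a marked run is not shown to begin the messenger RNA. Rps7, Rpl13a, Rpl11, Rps25 and Rpl38 are shown as called members with a run, Rpl10a and Rplp0 as called members without one, Rpl15 as an uncalled member with a run, and Rpl6 and Rpl36al as uncalled members without one. They were picked with their fold changes known.
Rps7, chr12:28635924-28635983, minus strand: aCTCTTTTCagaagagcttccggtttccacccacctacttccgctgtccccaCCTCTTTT
Rpl13a, chr7:45128716-45128775, minus strand: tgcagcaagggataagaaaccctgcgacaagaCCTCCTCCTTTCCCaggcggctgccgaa
Rpl11, chr4:136053364-136053423, minus strand: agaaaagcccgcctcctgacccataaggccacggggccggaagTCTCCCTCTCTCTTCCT
Rps25, chr9:44407684-44407743, plus strand: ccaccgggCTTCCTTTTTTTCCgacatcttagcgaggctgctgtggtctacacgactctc
Rpl38, chr11:114668550-114668609, plus strand: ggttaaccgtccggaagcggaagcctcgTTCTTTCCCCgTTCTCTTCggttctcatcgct
Rpl10a, chr17:28328441-28328500, plus strand: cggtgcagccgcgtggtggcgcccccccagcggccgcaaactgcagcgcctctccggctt
Rplp0, chr5:115559437-115559496, plus strand: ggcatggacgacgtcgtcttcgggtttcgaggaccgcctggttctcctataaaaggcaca
Rpl15, chr14:18270957-18271016, minus strand: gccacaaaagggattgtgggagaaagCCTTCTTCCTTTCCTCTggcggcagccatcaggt
Rpl6, chr5:121204471-121204530, plus strand: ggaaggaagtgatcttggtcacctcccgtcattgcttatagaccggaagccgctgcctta
Rpl36al, chr12:69184038-69184097, minus strand: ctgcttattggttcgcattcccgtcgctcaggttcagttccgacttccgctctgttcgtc

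Without Rps19bp1, 32 of 63 windows (50.8%) held such a run on the strand of the gene, against 22.7% of 27025 promoter windows of the same length. On the other strand the shares were 11.1% and 25.3%. The letters CTTTC, which can lie inside a run, stood on the strand of the gene in 33.3% of the members and 7.83% of all windows, and on the other strand in 11.1% and 7.2%. CCGGAAG, on either strand, stood in 19.0% and 4.07%, and in 8.85% of the windows of tested genes. These are matches of letters near annotated starts, which can differ from the starts used in liver.

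Ribosomal protein transcripts were higher after bypass and after calorie restriction than after sham surgery. They took 0.932% to 2.33% of all counts in Sham libraries (median 1.23%), 1.82% to 4.24% in WM (median 3.44%) and 1.74% to 4.06% in RYGB (median 2.92%). Sham 2, at 2.33%, lay above WM 25, RYGB 18, RYGB 19 and RYGB 29, and the other 7 Sham libraries lay below every WM and RYGB library. Summed over the members, levels were 9280 to 16890 CPM in Sham, 23060 to 45980 CPM in WM and 21340 to 44750 CPM in RYGB, and on this scale neither treated group overlapped Sham.

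**Figure D1:**
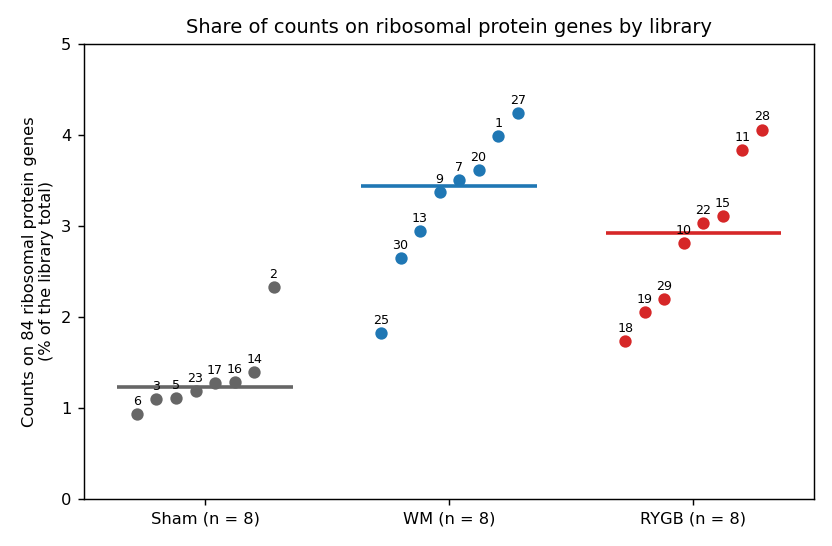
Counts on the 84 ribosomal protein genes as a percentage of each library's total, by group (n = 8 each), with one point per library, its sample number above it and a line at the group median. The Sham median is 1.23%, against 3.44% for WM and 2.92% for RYGB, and Sham 2 stands at 2.33%.

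In RYGB against Sham, 78 of 84 members were called higher and 0 lower, where 12.7% of all tested genes were called higher and 11.0% lower (23.7% in all). The median log2 fold change was 1.43, or 2.69-fold, with members from 0.01 to 2.40, and the median of the 13037 other tested genes was -0.02. In 42 members every RYGB library lay above every Sham library, as did 3.28% of all tested genes. The small subunit had 34 of 34 members called higher with a median of 1.47, and the large subunit 44 of 49 with a median of 1.39.

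In WM against Sham, 78 of 84 members were called higher and 0 lower, where 16.5% of all tested genes were called higher and 15.0% lower (31.4% in all). The median log2 fold change was 1.51, or 2.85-fold, with members from -0.03 to 2.80, and the other tested genes had a median of -0.01. In 41 members every WM library lay above every Sham library, as did 3.15% of all tested genes. Of the small subunit 32 of 34 members were called (median 1.59), and of the large subunit 46 of 49 (median 1.47). Both comparisons use the same 8 Sham libraries, so that they are given side by side and their likeness is not a second result. In all, 76 members were called in both.

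**Figure D2:**
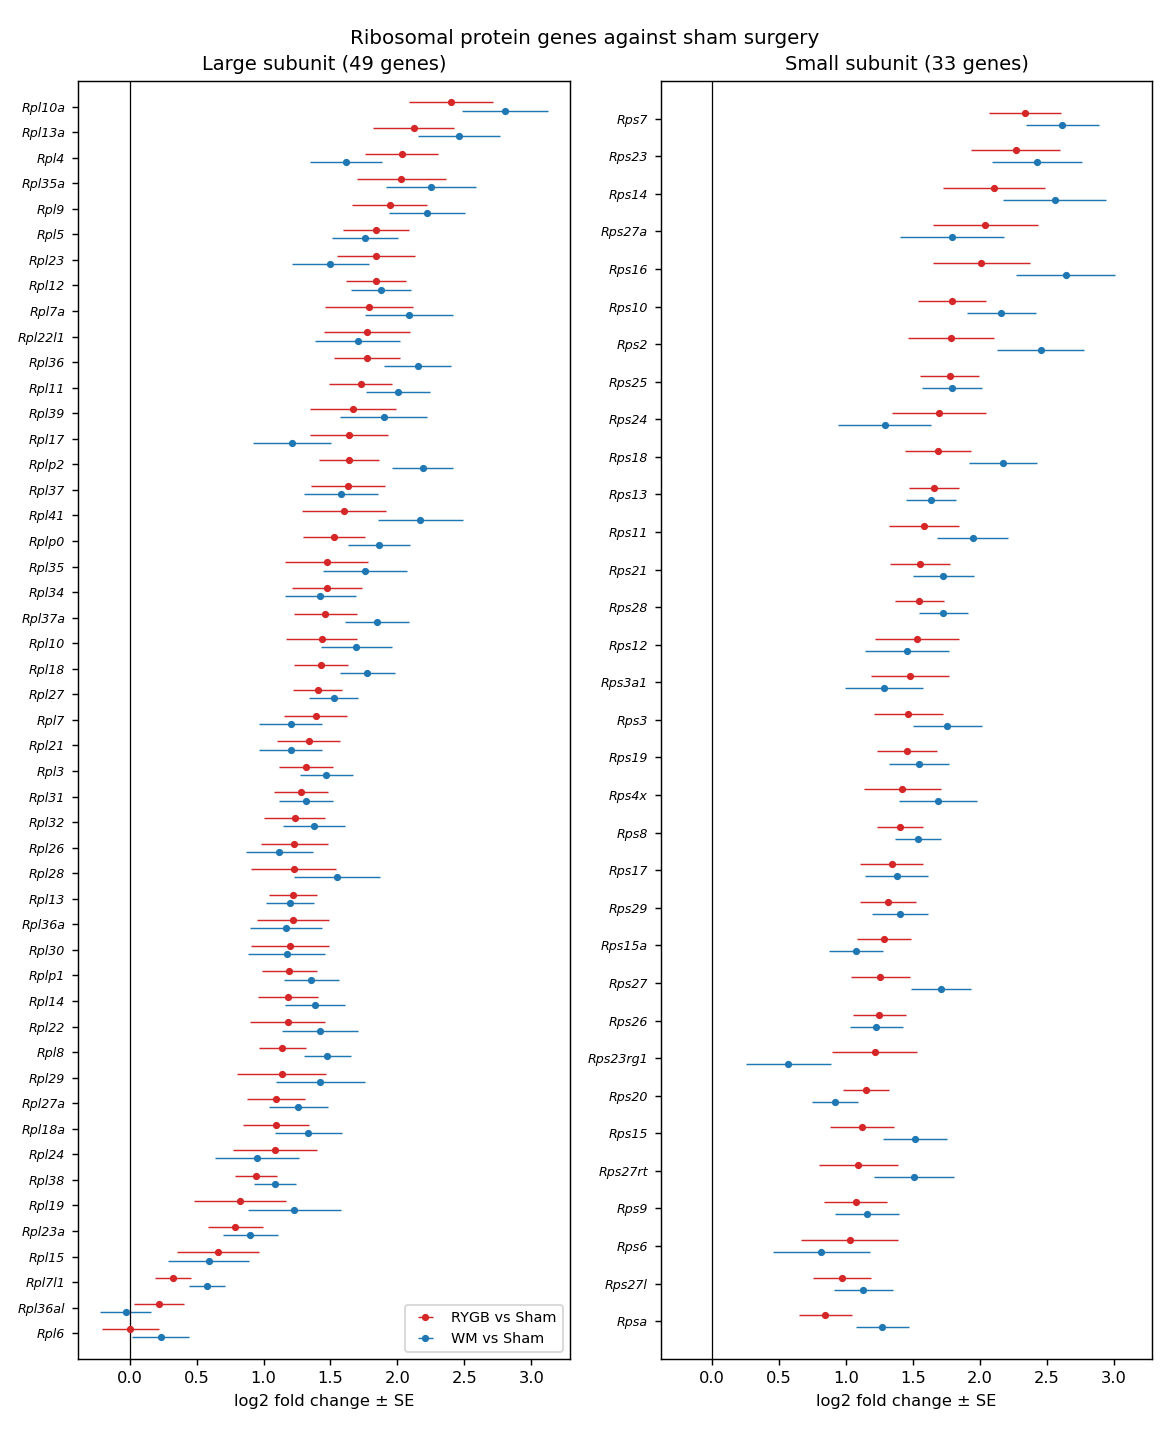
Log2 fold change ± SE of the large-subunit genes (49) and the small-subunit genes reported here by name (33) in RYGB against Sham (red) and WM against Sham (blue), ordered by the RYGB value, with Rps19bp1 left out. Values run from Rpl6 at 0.01 to Rpl10a at 2.40 in RYGB, and Rpl36al in WM is the one value below 0, at -0.03.

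RYGB and WM were not told apart by any member. With edgeR, 0 members were called in either direction (1.06% of tested genes were called higher in RYGB and 0.434% lower, 1.49% in all). DESeq2 and limma-voom also called 0 members. An unadjusted p under 0.05 from edgeR was reached by 5 of 84 members, and by 1451 of the 13037 other tested genes. The median log2 fold change of RYGB against WM was -0.17, with 58 members below 0 and 26 above, from -0.67 to 0.64. Among these 5, named here after their values were seen, were Rplp2 (-0.55 ± 0.22), Rpsa (-0.43 ± 0.20), Rps2 (-0.67 ± 0.31) and Rps27 (-0.45 ± 0.22), all lower in RYGB. The adjusted p values from edgeR ran from 0.290 to 0.427. These standard errors leave room for differences of the size seen, and a missed threshold does not show that the groups were alike.

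Members of the P-stalk, the arm of the large subunit that recruits elongation factors, were called higher in both comparisons. Rplp0, which anchors the stalk, stood at 46.5 to 123 CPM in Sham (median 80.8), 95.6 to 496 CPM in WM (median 259) and 177 to 272 CPM in RYGB (median 231). The RYGB libraries lay above all Sham libraries, and WM 9, at 95.6 CPM, was the one WM library within the Sham range. Its log2 fold change was 1.53 ± 0.23 in RYGB (edgeR adjusted p = 1.95e-05) and 1.86 ± 0.23 in WM (adjusted p = 8.53e-07).

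The stalk proteins Rplp1 and Rplp2, which bind Rplp0 in dimers, were both called higher in both comparisons. Whether their fold changes differ from each other was not tested. Rplp1 ran from 542 to 1329 CPM in Sham, 1342 to 2933 CPM in WM and 1380 to 2414 CPM in RYGB, with the top of Sham set by Sham 2 and no overlap with either group. Rplp2 ran from 85.2 to 203 CPM in Sham, 244 to 859 CPM in WM and 278 to 547 CPM in RYGB, again without overlap. Rplp1 rose by 1.36 ± 0.21 in WM and 1.19 ± 0.21 in RYGB, and Rplp2 by 2.19 ± 0.23 and 1.64 ± 0.23. About 66.9% of the 50-base windows in the last 300 bases of the Rplp1 transcript also occur in another annotated gene, against 6.37% for Rplp2.

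Several small-subunit members had log2 fold changes above 2 in both comparisons, among them Rps14, Rps7 and Rps23. Rps14, a platform protein, stood at 543 to 1323 CPM in Sham (median 609), 1572 to 9437 CPM in WM (median 3398) and 1575 to 9243 CPM in RYGB (median 2015). The groups did not overlap with Sham, but within RYGB a single library, RYGB 11, reached 9243 CPM while the next stood at 3541 CPM. Of all member counts, Rps14 supplied 5.23% to 7.83% per Sham library, against 5.48% to 21.4% in WM and 4.76% to 20.8% in RYGB. Its log2 fold change was 2.11 ± 0.38 in RYGB (edgeR adjusted p = 1.77e-04) and 2.56 ± 0.39 in WM (adjusted p = 1.25e-05).

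Rps7, a protein of the 40S body that is also known to bind the p53 regulator Mdm2, ran from 43.3 to 108 CPM in Sham (median 50.0), 198 to 535 CPM in WM (median 311) and 114 to 496 CPM in RYGB (median 275). Neither group overlapped Sham, although RYGB 18, at 114 CPM, lay close to Sham 2 at 108 CPM. The log2 fold change was 2.33 ± 0.27 in RYGB (edgeR adjusted p = 5.12e-07) and 2.61 ± 0.27 in WM (adjusted p = 5.41e-08). Rps23, which sits in the decoding centre, ran from 11.2 to 26.0 CPM in Sham, 22.5 to 203 CPM in WM and 33.7 to 193 CPM in RYGB, a rise of 2.43 ± 0.33 and 2.27 ± 0.33.

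Rps13 had the smallest p among the members in RYGB against Sham. It stood at 92.9 to 208 CPM in Sham, 330 to 563 CPM in WM and 310 to 664 CPM in RYGB, with log2 fold changes of 1.66 ± 0.19 in RYGB (edgeR adjusted p = 3.34e-07) and 1.64 ± 0.19 in WM (adjusted p = 2.43e-07). Rps16, whose tail reaches the tRNA site, ran from 3.19 to 42.3 CPM in Sham, 43.9 to 192 CPM in WM and 43.5 to 147 CPM in RYGB. Its gap to Sham was thin, with Sham 3 at 42.3 CPM just under the lowest treated library, and its log2 fold change was 2.01 ± 0.36 in RYGB and 2.64 ± 0.37 in WM.

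Rpl5, Rpl11 and Rpl13a, large-subunit proteins known for roles outside the ribosome, were called higher too. Rpl5 and Rpl11, which bind 5S RNA and can hold Mdm2 when ribosome assembly fails, rose by 1.84 ± 0.25 and 1.73 ± 0.24 in RYGB and by 1.76 ± 0.25 and 2.00 ± 0.24 in WM. Rpl11 stood at 252 to 554 CPM in Sham (median 293), 680 to 1832 CPM in WM (median 1195) and 574 to 1810 CPM in RYGB (median 1018). Rpl5 stood at 17.9 to 43.0 CPM in Sham, 34.9 to 129 CPM in WM and 52.3 to 183 CPM in RYGB. For Rpl5 the RYGB libraries cleared Sham, while WM 25, at 34.9 CPM, lay below Sham 2.

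Rpl13a, known for silencing the translation of inflammatory messenger RNAs once released from the ribosome, ran from 184 to 348 CPM in Sham (median 206), 568 to 2201 CPM in WM (median 1148) and 484 to 2273 CPM in RYGB (median 805). All treated libraries lay above all Sham libraries, and the treated groups spread over a far wider range than Sham. Its log2 fold change was 2.12 ± 0.30 in RYGB (edgeR adjusted p = 1.04e-05) and 2.46 ± 0.31 in WM (adjusted p = 8.41e-07). Rpl10a, a protein of the L1 stalk through which tRNA leaves, had the largest fold change of the family, 2.40 ± 0.32 in RYGB and 2.80 ± 0.32 in WM, with Sham at 0.896 to 6.50 CPM, WM at 10.5 to 40.3 CPM and RYGB at 9.10 to 36.2 CPM. Its counts are low for a ribosomal protein, with a mean of 229 per library, and 86.9% of its 3′ windows occur in another annotated gene.

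**Figure D3:**
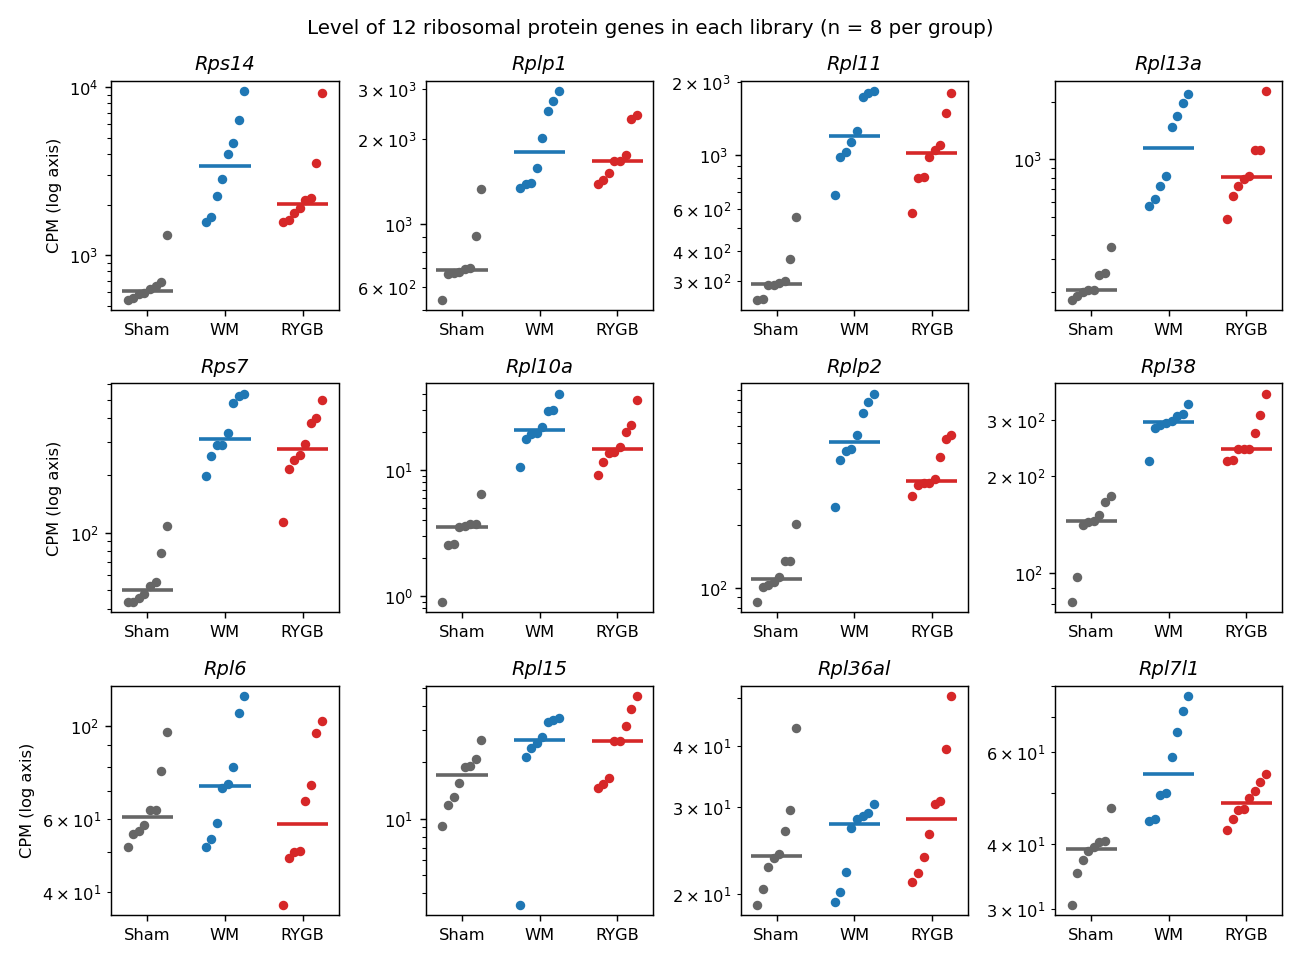
Level in CPM (log axis) of 12 ribosomal protein genes in each library, by group (n = 8 each), with a line at the group median. Rps14, Rplp1, Rpl11, Rpl13a, Rps7, Rpl10a, Rplp2 and Rpl38 show no overlap between Sham and either treated group, while Rpl6, Rpl15, Rpl36al and Rpl7l1 overlap.

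Rpsa and Rpl38 rose by less than the median member. Rpsa, also known as a laminin receptor precursor, stood at 94.1 to 126 CPM in Sham, 180 to 428 CPM in WM and 132 to 312 CPM in RYGB, without overlap, and rose by 0.84 ± 0.20 in RYGB and 1.27 ± 0.20 in WM. Rpl38, required for the translation of Hox messenger RNAs during patterning, stood at 81.4 to 173 CPM in Sham, 223 to 335 CPM in WM and 223 to 361 CPM in RYGB. Its rise of 0.95 ± 0.16 and 1.09 ± 0.16 was small for the family, and its groups were still apart. Rps25, used by viral internal ribosome entry sites, rose by 1.77 ± 0.22 and 1.79 ± 0.22, with Sham at 113 to 348 CPM, RYGB at 375 to 970 CPM and WM at 442 to 891 CPM.

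Rps19, the gene most often altered in Diamond-Blackfan anaemia, stood at 98.3 to 267 CPM in Sham, 349 to 691 CPM in WM and 192 to 660 CPM in RYGB. WM cleared Sham and RYGB did not, and the log2 fold changes were 1.46 ± 0.22 in RYGB and 1.54 ± 0.22 in WM. Rps27a, made as a fusion with ubiquitin, rose by 2.04 ± 0.39 and 1.79 ± 0.39, and overlapped Sham in both groups.

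Rps6, the substrate of S6 kinase and the usual readout of mTOR signalling, was counted at very low levels. It stood at 0.946 to 6.24 CPM in Sham, 2.27 to 8.51 CPM in WM and 2.70 to 16.2 CPM in RYGB, and all groups overlapped. Its mean count was 83.7 per library, and 83.3% of its 3′ windows occur in 11 other genes. The log2 fold change was 1.03 ± 0.36 in RYGB (edgeR adjusted p = 0.0390) and 0.81 ± 0.36 in WM (adjusted p = 0.0872), and the RYGB value was 0.71 and no longer called without RYGB 11. The RYGB call was also lost without Sham 2, Sham 14, Sham 16, Sham 17, Sham 23 or RYGB 28, each left out on its own (0.89 to 1.04), and under the correction for GC content and length (0.69). Conversely, the WM value was called without Sham 3 (1.01), WM 9 (0.93) or WM 25 (0.93) and with limma-voom (0.90).

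Paralogue pairs within the family did not always move together. Rpl22 and Rpl22l1, an RNA-binding protein and its close relative, rose by 1.18 ± 0.28 and 1.77 ± 0.32 in RYGB, and by 1.42 ± 0.28 and 1.70 ± 0.32 in WM. The Rpl22l1 to Rpl22 ratio of levels was 0.115 to 0.274 in Sham (median 0.155), 0.124 to 0.246 in WM (median 0.196) and 0.164 to 0.326 in RYGB (median 0.216), with overlap between all groups. Ratios here use counts of 3′ ends, about 1 per transcript and not divided by length.

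Rpl36a and its close copy Rpl36al had unlike fold changes. Rpl36a rose by 1.22 ± 0.27 in RYGB and 1.17 ± 0.27 in WM, while Rpl36al had 0.22 ± 0.19 (edgeR adjusted p = 0.420) and -0.03 ± 0.19 (adjusted p = 0.925). Rpl36al stood at 19.0 to 43.5 CPM in Sham, 19.3 to 30.5 CPM in WM and 21.1 to 50.5 CPM in RYGB, so that all groups overlapped. The Rpl36al to Rpl36a ratio had a median of 0.159 in Sham, 0.0790 in WM and 0.0860 in RYGB. All 3′ windows of Rpl36a and 70.1% of those of Rpl36al also occur in another gene, so that reads may be split or shared between copies.

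Rpl7, a core large-subunit protein, rose by 1.39 ± 0.24 in RYGB and 1.20 ± 0.24 in WM. Its paralogue Rpl7l1, which is linked to ribosome assembly, had 0.32 ± 0.14 in RYGB (edgeR adjusted p = 0.0825) and rose by 0.58 ± 0.14 in WM (adjusted p = 0.00188). Rpl7l1 stood at 30.6 to 46.8 CPM in Sham, 44.2 to 76.6 CPM in WM and 42.6 to 54.3 CPM in RYGB, and both treated groups overlapped Sham at their low ends. The Rpl7l1 to Rpl7 ratio had a median of 0.218 in Sham, 0.146 in WM and 0.121 in RYGB.

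Rps27 and its p53-inducible paralogue Rps27l rose by 1.26 ± 0.22 and 0.97 ± 0.22 in RYGB and by 1.71 ± 0.22 and 1.13 ± 0.22 in WM. The Rps27l to Rps27 ratio was 1.10 to 1.98 in Sham (median 1.52), 0.851 to 1.20 in WM (median 1.02) and 0.887 to 1.57 in RYGB (median 1.35). The retrogene Rps27rt, with 1.35 to 4.70 CPM in Sham, rose by 1.09 ± 0.29 and 1.51 ± 0.30, and 88.4% of its 3′ windows occur elsewhere. Rpl3, of the peptidyl transferase centre, rose by 1.32 ± 0.20 and 1.47 ± 0.20, Rpl10, which completes the large subunit, by 1.43 ± 0.26 and 1.69 ± 0.27, and Rpl39, of the exit tunnel, by 1.67 ± 0.32 and 1.90 ± 0.32.

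Rps4x, the X-linked small-subunit gene, rose by 1.42 ± 0.29 in RYGB and 1.69 ± 0.29 in WM. Its relative Rps4l has no name in the deposited table and was found by its identifier (ENSMUSG00000063171) through GENCODE M21, so it is not among the 84. Rps4l stood at 5.54 to 12.1 CPM in Sham, 12.1 to 50.4 CPM in WM and 18.3 to 30.4 CPM in RYGB, with log2 fold changes of 1.65 ± 0.23 in RYGB and 1.71 ± 0.23 in WM.

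A few members were not called. Rpl6, Rpl15, Rpl36al and Rps19bp1 passed in neither comparison in the main edgeR fit. For Rpl15 and Rps19bp1 this depended on the method or on single libraries (below). Rpl19 and Rpl7l1 passed in WM against Sham alone, and Rps6 and the retrogene Rps23rg1 in RYGB against Sham alone. The Rps6 calls depended on single libraries (above), and Rpl7l1 was also called in RYGB with limma-voom (0.32) and in the fit of the 2 groups alone (0.33). Rpl19, a large-subunit protein, had 0.83 ± 0.34 in RYGB (edgeR adjusted p = 0.0786) and rose by 1.23 ± 0.35 in WM (adjusted p = 0.00729). Rps23rg1, counted at a mean of 36.2 per library, rose by 1.21 ± 0.32 in RYGB (adjusted p = 0.00604) and had 0.57 ± 0.32 in WM (adjusted p = 0.174). Rpl19 and Rps23rg1 are named here after their values were seen.

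Rpl6, a large-subunit surface protein, had no 3′ window in another annotated gene. These windows come from a single annotated transcript, whose end may not be the one used in liver. Rpl6 stood at 51.4 to 96.7 CPM in Sham (median 60.6), 51.3 to 118 CPM in WM (median 71.8) and 37.4 to 103 CPM in RYGB (median 58.2), and the groups overlapped throughout. Its log2 fold change was 0.01 ± 0.21 in RYGB (edgeR adjusted p = 0.984) and 0.23 ± 0.21 in WM (adjusted p = 0.422).

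Rpl15, which sits in the core of the large subunit, had 0.66 ± 0.31 in RYGB and 0.59 ± 0.31 in WM, from 9.18 to 26.4 CPM in Sham, 3.48 to 34.5 CPM in WM and 14.6 to 45.1 CPM in RYGB. WM 25, at 3.48 CPM, was the lowest library of all, and without it Rpl15 was called higher in WM (0.76). With limma-voom Rpl15 was called higher in both RYGB (0.725) and WM (0.786). Rps19bp1 had 0.18 ± 0.21 and 0.39 ± 0.21 and stood at 20.3 to 53.2 CPM in Sham, 22.5 to 80.5 CPM in WM and 34.3 to 53.2 CPM in RYGB. Without WM 9 the WM value was 0.50 and was called.

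Set against the summed counts of the family in place of the library, the balance among members was also compared. This scaling moves the whole family to about 0, and 84.9% of all tested genes are then called lower in RYGB and 86.6% in WM, so that adjustment over all genes changes p little. In RYGB, 7 members were called higher and 10 lower, where 0.533% of all tested genes were called higher. In WM, 13 were higher and 14 lower, where 0.473% of all tested genes were higher. Between RYGB and WM 0 members were called (0.808% of all tested genes higher and 0.061% lower), and 1 had an unadjusted p under 0.05.

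Relative to the family, Rpl10a rose by 0.92 ± 0.29 in RYGB (edgeR adjusted p = 0.00438) and 1.17 ± 0.29 in WM (adjusted p = 5.07e-04). Rps7 rose by 0.86 ± 0.18 and 0.97 ± 0.19, Rps23 by 0.70 ± 0.25 and 0.75 ± 0.25, and Rpl13a by 0.59 ± 0.23 and 0.75 ± 0.23. Rps14 rose by 0.85 ± 0.30 in WM and had 0.60 ± 0.29 in RYGB (adjusted p = 0.0595), and Rps16 rose by 0.94 ± 0.32 in WM and had 0.53 ± 0.32 in RYGB (adjusted p = 0.117). A difference between RYGB and WM in these genes was tested and not called.

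At the other end, Rpl36al fell by 1.29 in RYGB and by 1.66 in WM relative to the family (SE 0.24 in both). Rpl6 fell by 1.46 and 1.47 (SE 0.24), and Rps19bp1 fell by 1.25 and 1.22 (SE 0.30). Rpl7l1 fell by 1.09 and 1.04, and Rpl15 by 0.85 and 1.09. Rpsa fell by 0.65 and 0.45, Rpl38 by 0.46 and 0.51, and Rps27l by 0.49 and 0.54. In CPM none of these genes was called lower in either comparison, so that each fall is relative to the family. The last 3 were called higher in both comparisons in CPM, and Rpl7l1 in WM alone.

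**Figure D4:**
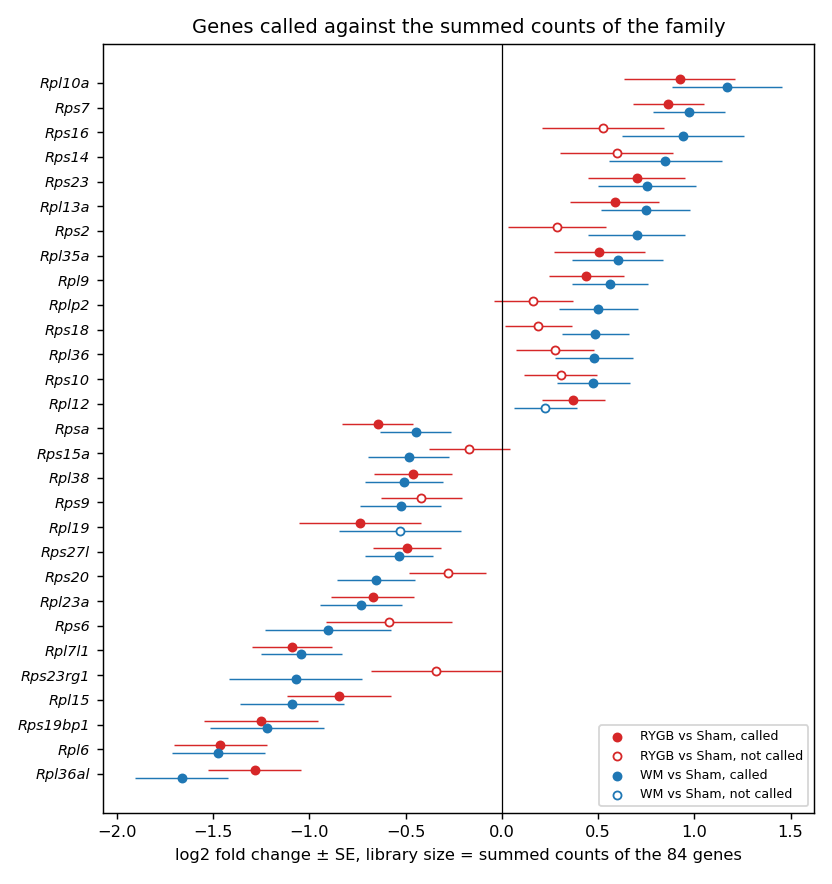
Log2 fold change ± SE of the 29 genes called in at least 1 comparison when library size is the summed count of the 84 genes, in RYGB against Sham (red) and WM against Sham (blue), with open circles for values that were not called. Rpl10a stands highest at 0.92 and 1.17, and Rpl36al and Rpl6 stand lowest, at -1.29 and -1.66 and at -1.46 and -1.47.

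Members also varied together within groups. After each group's mean was taken off, the correlation between 2 members over the 24 libraries had a median r of 0.41 over 3486 pairs, and 2895 pairs were above 0. These points share library and scaling, and other genes were not compared, so that this is not shown to be particular to the family. Rps18 and Rpl12 followed the median of the other members most closely (r = 0.96 and 0.94), and Rps19bp1, Rpl29 and Rpl6 least (r = -0.16, 0.13 and 0.19).

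Transcripts of the family are short, with a median of 751 bases against 2626.5 for all tested genes, and short genes in general stood higher in the treated groups. For genes outside the family, the log2 level in each library was taken as a deviation from the gene's mean over the 24 libraries. The slope of this deviation on log2 transcript length was 0.0719 to 0.192 in Sham libraries, -0.175 to 0.0427 in WM and -0.129 to 0.0178 in RYGB. Sham did not overlap either group. The slopes are relative to that mean, so that positive values in some libraries go with negative values in others. The 1539 other genes under 1000 bases had a median of 0.43 in RYGB (479 higher, 91 lower) and 0.59 in WM (598 higher, 103 lower). Of these, the 195 with a mean of at least 100 CPM had a median of 0.74 (119 higher, 6 lower) and 0.89 (135 higher, 8 lower).

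The 63 members under 1000 bases had a median of 1.43 in RYGB and 1.52 in WM, and the 21 longer members had 1.39 and 1.50. Lengths are those of a single annotated transcript per gene, which may not be the one made in liver, so that this split is uncertain. After a correction of each library for trends on GC content and length, 74 members were called higher in RYGB with a median of 1.06, and 73 in WM with a median of 1.09, where Rpl36al was called lower (-0.58). Of all tested genes 14.8% were then called higher and 8.76% lower in RYGB, and 18.1% and 11.1% in WM, with medians of 0.06 and 0.08. The part of this length trend in the family's difference beyond that correction was not tested.

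Reads may be shared with other genes for most members, since ribosomal proteins have many processed copies. In 19 members no 3′ window occurred in another annotated gene, and 17 of these were called higher in RYGB (median 1.46) and 16 in WM (median 1.55). In the 49 members with over 50% of windows shared, 46 were called higher in each comparison (medians 1.40 and 1.47). How the authors counted reads with several matches was not stated, so that single levels of such members are uncertain.

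Mitochondrial ribosomal proteins, which build the separate ribosome of mitochondria, were higher by less. Of 78 genes 76 were tested, and 40 were called higher in RYGB with 0 lower (median 0.61) and 48 in WM with 0 lower (median 0.67). Summed levels were 2270 to 2798 CPM in Sham, 3235 to 5198 CPM in WM and 3356 to 4521 CPM in RYGB.

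**Figure D5:**
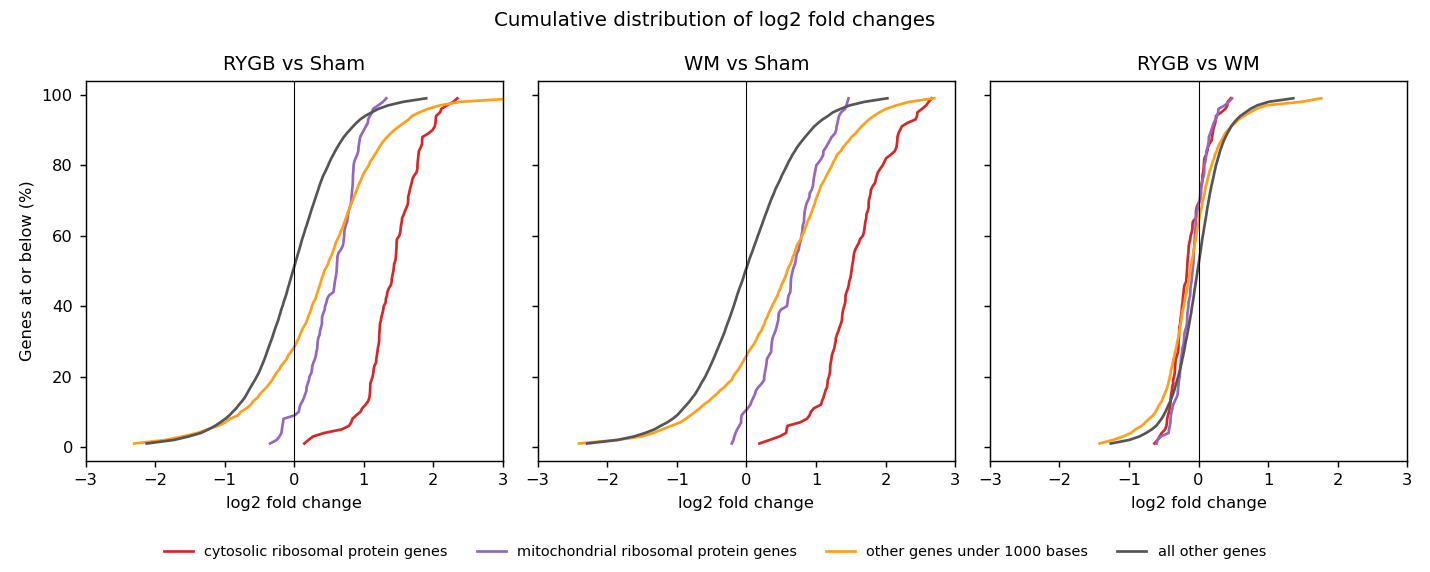
Cumulative share of genes (percentiles 1 to 99) against log2 fold change in the 3 comparisons, for cytosolic ribosomal protein genes (84), mitochondrial ribosomal protein genes (76 tested), other genes under 1000 bases (1539) and all other genes (13037). In RYGB against Sham the medians are 1.43, 0.61, 0.43 and -0.02, and in WM against Sham 1.51, 0.67, 0.59 and -0.01.

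Genes that work with the ribosomal proteins were taken from lists drawn from textbook knowledge. Their counts are to be read against all tested genes, of which 12.7% were called higher and 11.0% lower in RYGB, and 16.5% and 15.0% in WM. Fau, which encodes a ribosomal protein fused to a ubiquitin-like protein, and Rack1, a scaffold on the small subunit, were called higher in both comparisons. Rack1 rose by 1.01 ± 0.23 in RYGB and 1.30 ± 0.23 in WM, and Fau by 0.70 ± 0.20 and 1.05 ± 0.20.

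Translation factors and related proteins whose messenger RNAs are known to carry the TOP motif moved the same way in most cases. Of 19, 12 rose in RYGB and 1 fell (median 0.67), and 13 rose and 1 fell in WM (median 0.85). Eef1b2, an exchange factor of elongation, stood at 144 to 275 CPM in Sham, 408 to 856 CPM in WM and 383 to 870 CPM in RYGB, and rose by 1.71 ± 0.20 and 1.83 ± 0.20. The initiation factor subunit Eif3h rose by 1.50 ± 0.17 and 1.70 ± 0.17. The factor that fell was the poly(A)-binding protein Pabpc1 (-0.65 in RYGB and -0.74 in WM), named after its value was seen. Among 9 host genes of small nucleolar RNAs, 5 rose in RYGB and 6 in WM with 0 lower, among them Zfas1 (1.09 ± 0.25 and 1.75 ± 0.25) and Epb41l4aos (1.21 and 1.26).

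Other initiation factors were mixed, with 7 of 27 higher and 1 lower in RYGB (median 0.31) and 9 higher and 3 lower in WM (median 0.18). Eif3i rose by 1.16 ± 0.18 and 1.37 ± 0.18. Eif4g3, an initiation scaffold, stood at 30.9 to 70.9 CPM in Sham, 12.8 to 26.2 CPM in WM and 18.4 to 31.9 CPM in RYGB, and had log2 fold changes of -1.09 ± 0.19 and -1.51 ± 0.19.

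The machinery that makes ribosomal RNA and assembles subunits had list medians between 0.05 and 0.38. Of 84 assembly factors, 9 rose and 4 fell in RYGB (median 0.05), and 18 rose and 9 fell in WM (median 0.14). Imp3, a component of the small-subunit processome, rose by 1.15 ± 0.14 and 1.46 ± 0.14, and Utp3 by 0.69 and 0.58. Of 18 RNA polymerase I genes, 2 rose and 2 fell in RYGB (median 0.17) and 5 rose in WM (median 0.38). Those that rose in RYGB were the subunits Polr1c (1.21 ± 0.21) and Polr1d (0.70), and those that fell were Ubtf (-0.68) and Ttf1 (-0.59), the last 2 named after their values were seen.

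Genes of mTOR and Myc regulation numbered 31, of which 3 rose and 5 fell in RYGB (median -0.13) and 4 rose and 7 fell in WM (median -0.02). Rraga, a GTPase that signals amino acids to mTOR, rose by 1.38 ± 0.30 and 1.15 ± 0.30, and Lamtor5, of its lysosomal anchor, by 0.66 and 1.00. Of 15 genes of ribosome surveillance and the p53 response, 2 rose and 3 fell in RYGB (median -0.10), and 2 rose and 5 fell in WM (median -0.30). Cdkn1a, the cell-cycle inhibitor induced by p53, stood at 11.1 to 79.1 CPM in Sham, 0.810 to 6.05 CPM in WM and 2.15 to 8.46 CPM in RYGB, with log2 fold changes of -3.15 ± 0.44 and -3.94 ± 0.46. Huwe1, a ubiquitin ligase that removes unassembled ribosomal proteins, had -0.80 ± 0.18 in both. Between RYGB and WM 0 genes of any of these lists were called.

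Members with and without a pyrimidine run in the promoter window differed little. The 32 with a run had 31 called higher in RYGB (median 1.45) and 29 in WM (median 1.50), and the 31 without had 27 (median 1.47) and 29 (median 1.64).

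Whole liver holds several cell types, and in bulk tissue fewer cells of a type and less RNA per cell cannot be told apart. Hepatocyte markers dominated every library (33510 to 78910 CPM in Sham, 78950 to 145100 CPM in WM, 84560 to 144200 CPM in RYGB), and 5 of 7 were called higher in RYGB and 6 of 7 in WM, with Apob lower in both. Kupffer cell markers were called higher for 7 of 8 genes in RYGB and 6 of 8 in WM, with sums of 59.8 to 308 CPM in Sham, 207 to 604 CPM in WM and 163 to 818 CPM in RYGB. Endothelial sums were 52.8 to 271, 231 to 365 and 127 to 300 CPM in the same order (3 of 8 higher in RYGB, 6 of 8 in WM). Lymphocyte sums were 5.35 to 23.6, 6.98 to 245 and 22.4 to 229 CPM, with 3 of 6 tested markers higher in each. Erythroid sums were 748 to 2410, 1407 to 9955 and 2806 to 5662 CPM (2 of 5 and 5 of 5 higher). Stellate cell sums were 404 to 811, 243 to 397 and 292 to 432 CPM, cholangiocyte sums 44.8 to 101, 21.3 to 37.3 and 31.7 to 50.6 CPM, and granulocyte and monocyte sums 10.7 to 50.6, 2.04 to 23.8 and 5.98 to 24.8 CPM, with no marker of these lists called higher. In RYGB and WM, 3 and 5 of 8 stellate markers and 1 and 2 of 5 cholangiocyte markers were called lower. In each, 1 of 4 tested granulocyte and monocyte markers was called lower. Of the cholangiocyte markers, 3 of 5 in RYGB and 2 of 5 in WM had log2 fold changes above 0 (medians 0.28 and -0.07). No marker in the table was at 0 in all libraries, and the part of any of these lists in the family's difference was not tested.

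Pancreatic acinar transcripts other than Cela1, which liver also makes, stood above 100 CPM in 3 libraries, Sham 17 (1182), RYGB 18 (2721) and RYGB 19 (2647). RYGB 18 and RYGB 19 held the lowest member shares of their group. Without these 3 libraries 77 members were called higher in RYGB with a median of 1.44, and 78 in WM with a median of 1.47.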

How the data were processed

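The authors deposited raw counts, whole numbers of reads per Ensembl gene, and a normalized signal. Each deposited signal value equals the raw count divided by 1 median-of-ratios size factor per library (largest relative difference 1.8e-15), and DESeq2 1.34 and R 4.1.2 stand in the submitters' processing notes. RNA was extracted with Trizol and RNeasy columns and libraries were made with the QuantSeq 3′ kit, per the labels' protocols. How reads were aligned and counted (build, strand, several matches) is not given in the sources used here.

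Tests were run on the counts with edgeR 4.0.16 in R 4.3.3 (filterByExpr, TMM, quasi-likelihood F-test, 1 fit of 24 libraries, common biological coefficient of variation 0.398), and the procedure was tested on simulated data. Library totals ran from 13659647 to 22766612 counts. Groups came from the labels. Alternatives used DESeq2 1.42.0, limma 3.58.1 (voom, and trend on log2 of the deposited signal plus 1), RLE scaling, library totals, the summed counts of the members as library size, other filters, only the groups compared, offsets for GC content and length (mgcv 1.9.3), and libraries left out. TMM factors from genes outside the family, and leaving out Sham 17, RYGB 18 and RYGB 19, were chosen after seeing the data.

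Transcript length, GC content and shared 3′ sequence (windows of 50 bases in the last 300) came from GENCODE M21, which holds all 84 members. They describe 1 annotated transcript per gene, which may not be the one that liver makes. Members were named by a rule: in each comparison the 4 higher and 4 lower called members with the largest fold change and the 2 with the smallest p, at 5 CPM or more in 1 group, and fixed members (P-stalk, Rpsa, Rps6, Rpl5, Rpl11, Rpl13a, Rps27a, Rpl38, Rps25, Rps19, paralogue pairs and Rps19bp1). From each pathway list up to 2 called genes with the smallest p were named, with Fau and Rack1. Some genes that the rules take are not reported here by name. The members and lists were chosen with earlier results of these data known. Rpl3l, Rpl10l and Rpl39l were not analysed here.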

Additional observations from a re-analysis of the deposited data

Results flagged for a closer look

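In 20 of 105 groups of 8 libraries, 1 library stood apart from the other 7 by more than Dixon's 95% limit on the gap relative to the range, which chance passes in about 1 group in 20. The groups are not independent, since members share libraries. Sham 2 accounted for 12 of the 20, always at the top of Sham. Its marker sums in CPM were the highest of Sham for Kupffer (308), endothelial (271), stellate (811), cholangiocyte (101) and granulocyte and monocyte cells (50.6). Its lymphocyte (5.35) and erythroid (748) sums were the lowest of Sham, and its TMM factor (1.38) was the largest.

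In Sham 2 the members took 2.33% of counts, where the next Sham library had 1.40%. The same library held 554 CPM of Rpl11 (next 372), 348 CPM of Rpl13a (next 254), 483 CPM of Rpl22 (next 234) and 68.6 CPM of Rpl22l1 (next 37.2). It also held 288 CPM of Rpl36a (next 177), 266 CPM of Rpl39 (next 167), 344 CPM of Rpl7 (next 215) and 1329 CPM of Rplp1 (next 906). Its Rps14 was 1323 CPM (next 688), its Rps19 267 CPM (next 171) and its Rps27l 476 CPM (next 316). Sham 6 held 43.5 CPM of Rpl36al (next 29.6), and Sham 3 held 203 CPM of Rplp2 (next 135).

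RYGB 11 stood at the top of its group for Rps14 (9243 CPM, next 3541), Rpl13a (2273 CPM, next 1126) and Rpl39 (1090 CPM, next 573), and RYGB 28 for Rpl10 (117 CPM, next 82.5). WM 25 stood at the bottom of its group for Rpl15 (3.48 CPM, next 21.3), and WM 30 for Rpl38 (223 CPM, next 283).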

How the results depend on the processing

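With the summed member counts as library size, the family lies near 0 by construction. The counts were then 7 higher and 10 lower in RYGB against Sham (median -0.036) and 13 higher and 14 lower in WM against Sham (median -0.13). Over all 84 members, 46 were below 0 in RYGB and 47 in WM. Among the members named in the text, those that turned below 0 in RYGB were Rpl10 (-0.046), Rpl15 (-0.85), Rpl22 (-0.26), Rpl3 (-0.15), Rpl36a (-0.24), Rpl36al (-1.29), Rpl38 (-0.46), Rpl6 (-1.46), Rpl7 (-0.057), Rpl7l1 (-1.09), Rplp1 (-0.25), Rps19 (-0.002), Rps19bp1 (-1.25), Rps27 (-0.24), Rps27l (-0.49), Rps27rt (-0.39), Rps4x (-0.047), Rps6 (-0.59) and Rpsa (-0.65). In WM the named members that turned were Rpl15 (-1.09), Rpl22 (-0.21), Rpl3 (-0.16), Rpl36a (-0.43), Rpl38 (-0.51), Rpl6 (-1.47), Rpl7 (-0.35), Rpl7l1 (-1.04), Rplp1 (-0.31), Rps19 (-0.067), Rps19bp1 (-1.22), Rps27l (-0.54), Rps27rt (-0.18), Rps6 (-0.90) and Rpsa (-0.45).

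The correction for GC content and length gave 1 member lower in WM, Rpl36al, and a WM median of 1.09, and the cause was not tested. A limit of 100 CPM on summed acinar markers took out 10 libraries, because Cela1 is made in liver, and left 1 WM library, assumed to vary like the other groups. With so few samples 32 members were called higher in WM, as were 100 of 14747 tested genes, the members' median was 1.57, and Rps14 (2.00) and Rpl13a (1.70) were not called. Library totals without scaling gave 71 higher in RYGB (median 1.07) and 76 in WM (median 1.18) and moved the median of all tested genes by -0.35 and -0.33, so that members lay about as far above it as before. Under that scaling Rpl22, Rps27rt, Rpsa and Rps6 lost their RYGB call and Rpl7l1 its WM call. RLE scaling, TMM from other genes, both other filters, DESeq2, limma-voom, limma-trend and the fit of the compared groups gave 78 to 80 higher and 0 lower against Sham, and 0 between RYGB and WM.

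With each library left out in turn, 77 to 79 members were called higher in RYGB (median 1.30 to 1.47) and 78 to 80 in WM (median 1.44 to 1.60), 0 lower, and 0 between RYGB and WM (median -0.24 to -0.09). No paired analysis was possible because the groups share no sample numbers. Rpl24, Rps6, Rps27rt and Rps23rg1 had under 100 counts per library on average, and the part of depth in their errors was not tested.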
